A study of Taeniopygia guttata with 39 samples.

Results

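The series measured gene expression in HVC, a song nucleus of the songbird forebrain, of adult female canaries that were held on short days and are labelled as non-breeding. Singing birds were compared with birds that had carried testosterone for hours and are labelled as non-singing. All 22 birds compared carried a Silastic tube filled with testosterone under the skin over the breast muscle, so treatment itself is common to every bird. The singing birds were 6 implanted for 7 d and 6 implanted for 14 d. The non-singing birds were 6 implanted for 1 h and 4 implanted for 3 h. These are 22 of the 39 arrays of the series, 1 bird to an array. The 4 groups were chosen because the bird numbers in their sample titles form one continuous range, apart from those of the other groups, and replicate 2 of the 3 h group was left out because its array stood apart from all others. The 5 birds with an empty tube (control), the 5 birds at 8 h and the 6 birds at 3 d took no part in the main tests, and their levels are given only for reference. They are labelled as non-singing too, but the non-singing birds named below are only the 1 h and 3 h birds compared.

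HVC drives learned song in songbirds, and testosterone causes adult female canaries to sing and enlarges HVC. Part of its action runs, after conversion by aromatase, through oestrogen receptors. Singing itself is known to raise immediate early genes in HVC neurons of songbirds, above all EGR1 (known as ZENK in songbirds) and FOS, which neurons transcribe within minutes of firing.

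Song is labelled per group, and the labels give no amount of song per bird. Within that range the bird numbers rose with implant duration, and the numbers of the 4 groups did not overlap. Singing, implant duration and the order of bird numbers therefore cannot be told apart. In pieces of tissue, fewer cells of a type and less RNA per cell cannot be told apart either. Canaries are named in the design text but the organism field gives the zebra finch, and the identifiers on the arrays are largely those of the latter species.

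The deposited values are on a log2 scale, and a difference of 1 is a 2-fold change. The array medians did not separate the labels. Their mean was 7.689 ± 0.111 (SD, n = 6) at 7 d, 7.816 ± 0.049 (n = 6) at 14 d, 7.714 ± 0.130 (n = 6) at 1 h and 7.712 ± 0.014 (n = 4) at 3 h. The singing groups were higher by 0.0396 on average, with a two-sided permutation p of 0.378 over 100000 resamples. The medians did separate 14 d from 3 h, since the lowest 14 d array (7.778) lay above the highest 3 h array (7.731). Between those groups, overall array level and implant duration cannot be told apart. Component 1 of a principal component analysis held 39.4% of the variance and followed the array medians, while component 2 held 8.97% and was highest in the 4 birds at 3 h. For the array left out, the median of its correlations with other arrays was 0.886, and for no other array was it under 0.963.

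**Figure D1:**
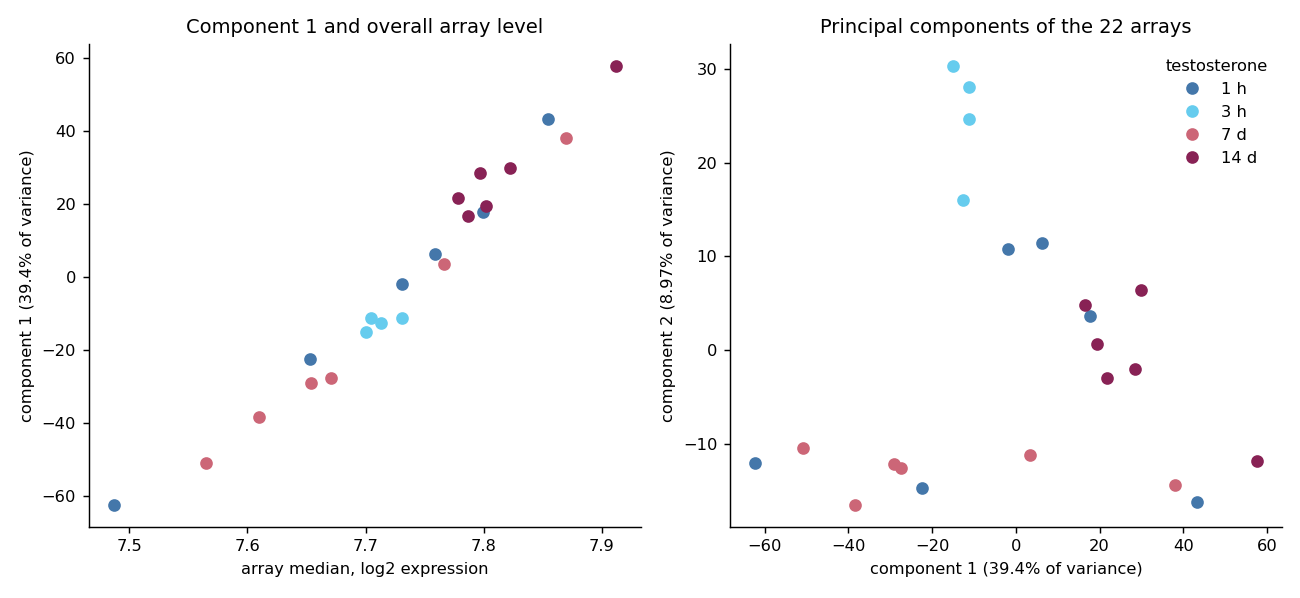
Principal components of the 22 arrays, coloured by group. The left panel plots component 1 (39.4% of the variance) against the array median in log2 expression, where points lie along a line and singing and non-singing birds each span most of it. The right panel plots component 2 (8.97%) against component 1, where the 4 birds at 3 h lie above all others on component 2.

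Singing birds differed from non-singing birds in a small share of the transcripts. Of 26061 transcripts, 652 passed at an adjusted p under 0.05 in limma's test (2.50%), 303 higher in singing birds (1.16%) and 349 lower (1.34%), and 4380 had an unadjusted p under 0.05. The differences were moderate in size, with a median of 1.34-fold among those called, and 25 were 2-fold or more. The median log2 difference over all 26061 transcripts was 0.0448. Only identifiers that pair with an official zebra finch gene symbol can be named, and 42 of these 2232 genes passed (1.88%), 22 higher (0.986%) and 20 lower (0.896%). No official symbol is paired here with 609 of the 652, and 1 is a dimmer identifier of GLRA2, a glycine receptor subunit. The count of 652 was 339 to 383 without 3 h replicate 3, 4 or 5 and 1072 without 1 h replicate 4.

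Of the 42 called genes, FOS, HAS2 and CRHBP had the 3 largest differences and were higher in singing birds. APOH and ADAMTS20 had the largest differences of the called genes that were lower. For 28 of the 42 genes the non-singing mean had all 12 singing birds on the same side. The 42 were called on the difference between these same birds, so this count is no separate test. Levels of 10 of them (APOH, CCND1, CZH9orf85, HAS2, JAK2, MTUS1, NCAM2, NUDT12, PRELID3A and ZBTB41) lay under the 25th percentile of all transcripts, where a difference is less certain. With each array left out in turn, 19 of the 42 passed every time. For 10 genes (ACOX2, ACTR10, ADAMTS20, CRHBP, DHRS12, F13A1, HAS2, IGF2, IRF4 and NEFM) no alternative fit that held them changed the call at an adjusted p under 0.05.

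**Figure D2:**
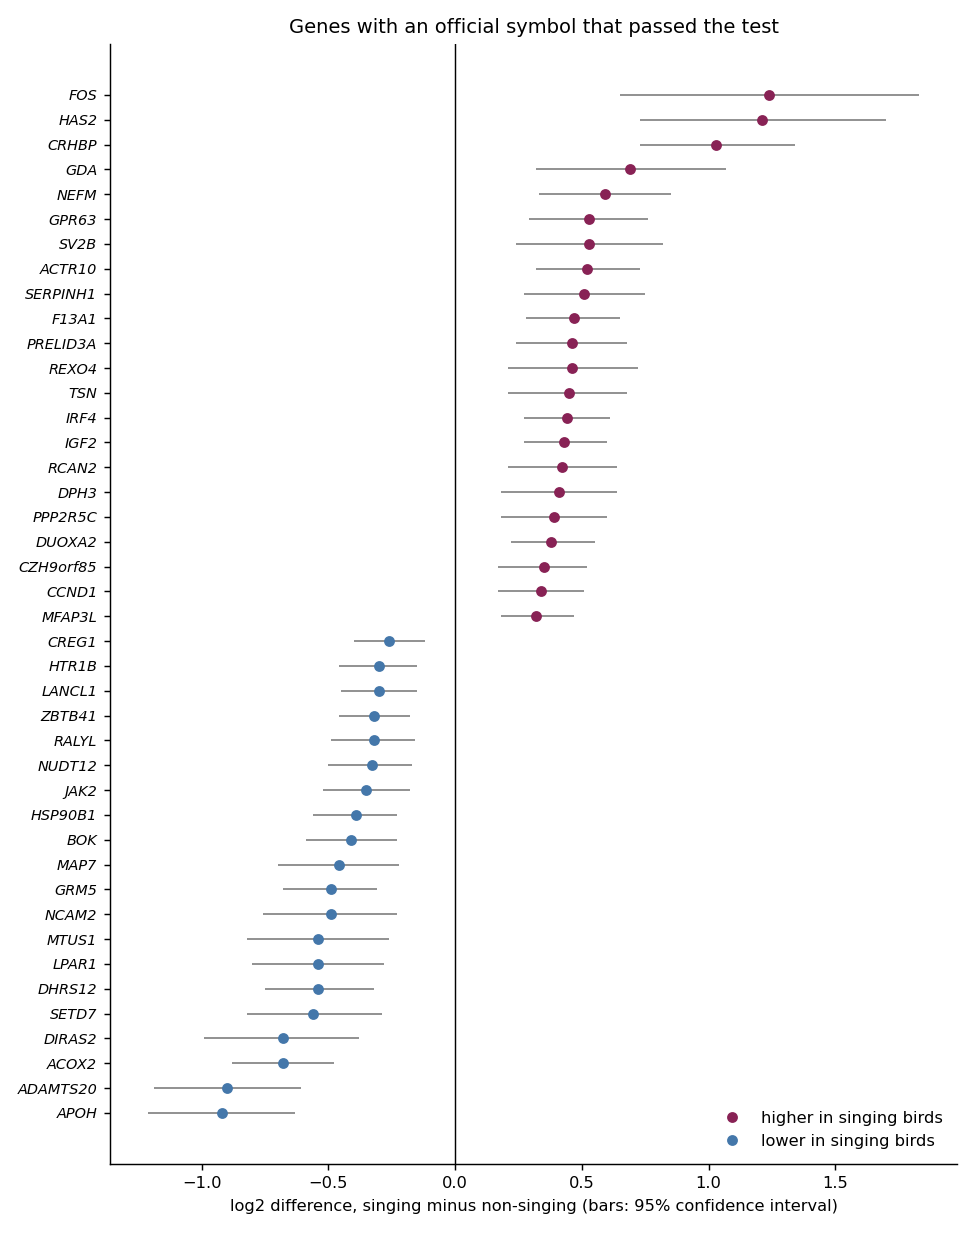
The 42 genes with an official symbol that passed, ordered by their log2 difference, singing minus non-singing, on the x axis. Points are estimates from the limma fit and bars are 95% confidence intervals, with 22 genes higher in singing birds, up to 1.24 for FOS, and 20 lower, down to -0.92 for APOH.

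Returning replicate 2 of the 3 h group to the fit left 269 transcripts and 20 of the 42 genes called. BOK, CREG1, CZH9orf85, DPH3, DUOXA2, FOS, GDA, GRM5, HSP90B1, HTR1B, MAP7, MFAP3L, NCAM2, NUDT12, PPP2R5C, RALYL, RCAN2, REXO4, SETD7, SV2B, TSN and ZBTB41 then did not pass. Centring each array on its median left 31 of the 42, without GPR63, CCND1, CZH9orf85, GDA, HTR1B, MFAP3L, NCAM2, PPP2R5C, RCAN2, SV2B and TSN.

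The immediate early gene FOS (XM_002200534), which encodes a subunit of the AP-1 transcription factor, was higher in singing birds and varied widely among them. Its level ran from 6.62 to 8.98 (median 7.09) at 7 d and from 6.36 to 8.51 (median 7.36) at 14 d. The 1 h birds ran from 5.75 to 6.6 (median 6.1), and the 3 h birds stood at 5.26, 6.89, 6.46 and 6.0. The highest singing birds were replicate 6 of the 7 d group and replicate 4 of the 14 d group, 7 of the 12 singing birds lay above every non-singing bird, and the groups overlapped. The mean was 7.36 ± 0.85 (SD, n = 12) in singing and 6.12 ± 0.47 (n = 10) in non-singing birds. FOS rose by 1.24 ± 0.29 (SE) on the log2 scale, a 2.36-fold difference with a 95% interval of 0.65 to 1.83 and a limma adjusted p of 0.0214. It did not pass without 3 h replicate 5 (adjusted p = 0.0513) or with 3 h replicate 2 in the fit (0.0621), a bird whose FOS level was 7.44.

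EGR1 (NM_001080957), a zinc finger transcription factor, did not pass. It ran from 8.85 to 10.52 (median 9.09) at 7 d and from 9.12 to 10.13 (median 9.51) at 14 d. Birds implanted for 1 h ran from 8.77 to 9.38 (median 8.94), and the 3 h birds stood at 8.67, 9.03, 8.56 and 8.42. Both labels overlapped, and 11 of 12 singing birds lay above the mean of the non-singing birds. The log2 difference was 0.61 ± 0.17 (SE), with a 95% interval of 0.26 to 0.96 and a limma adjusted p of 0.0548. It passed in 5 of 22 fits with 1 array left out, among them the fit without 7 d replicate 6, its highest bird, and in fits with 38 arrays of all groups (0.0116), with array weights (0.0106) and without the dimmest 25% of transcripts (0.0423). Of the 6 measured members of the list of immediate early genes, FOS alone passed, where 1.88% of the genes with an official symbol did. The median log2 difference of the list was 0.16, against 0.045 over all transcripts. JUN, which encodes a partner of FOS in AP-1, had a difference of -0.27 (adjusted p = 0.0703) and DUSP6, a phosphatase that acts on ERK, of 0.22 (0.353). DUSP5 (0.10) and HOMER1 (0.01) did not pass either, and HOMER1 was dim, with group means from 2.47 to 3.46 in the 4 groups.

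**Figure D3:**
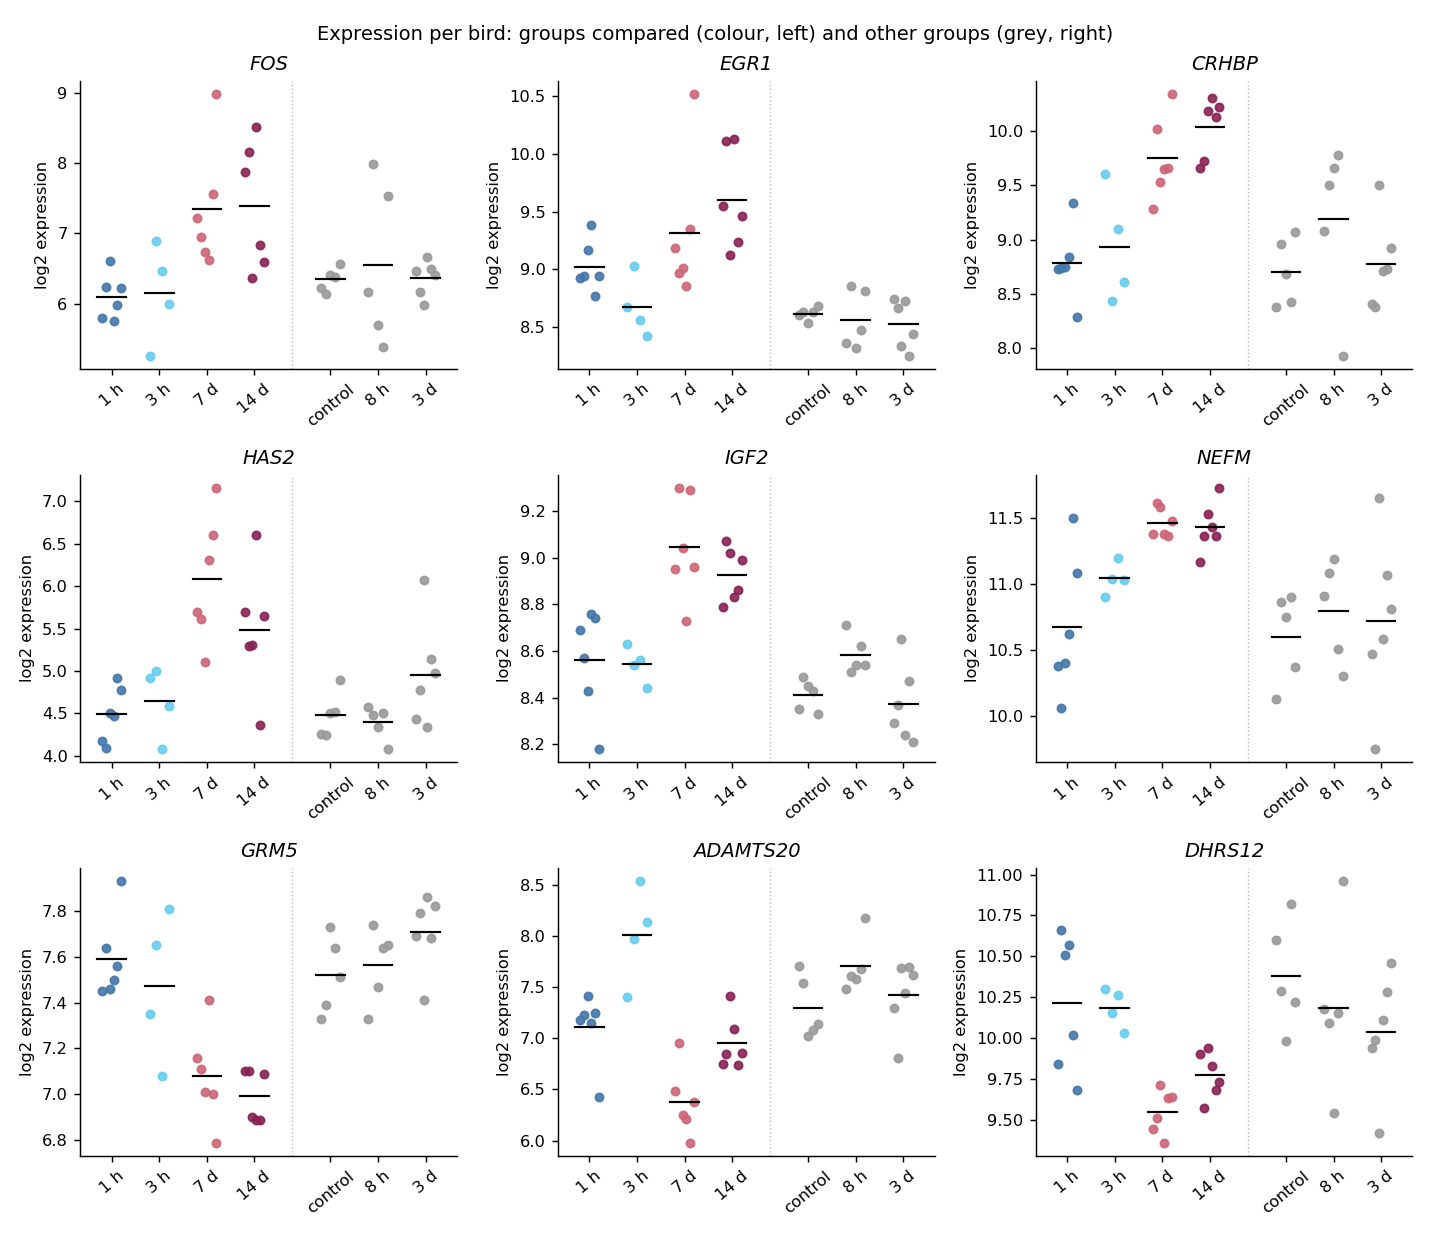
Log2 expression of 9 genes in each bird (points) with the group mean (line), for the 4 groups compared (colour, left of the dotted line) and for the control, 8 h and 3 d birds (grey, right), which took no part in the main tests. FOS, HAS2 and EGR1 spread most among singing birds, and of the called genes FOS, CRHBP, HAS2, IGF2 and NEFM were higher and GRM5, ADAMTS20 and DHRS12 lower in singing birds.

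Among the 12 singing birds, those with more FOS also had more EGR1. Pearson's r between FOS and EGR1 was 0.906 (permutation p = 8e-05, 0.0008 adjusted over 10 relations) and Spearman's rho was 0.748 (permutation p = 0.00727, 0.0393 adjusted). The relation kept an r of 0.766 without the birds with the 2 most extreme FOS levels, and r was 0.990 within the 7 d group and 0.909 within the 14 d group. FOS and DUSP6 gave an r of 0.781 (permutation p = 0.00166, 0.0083 adjusted) and a rho of 0.741 (permutation p = 0.00786, 0.0393 adjusted). Here r was 0.687 without the most extreme birds, 0.979 within 7 d and 0.951 within 14 d. In each group the birds lined up in nearly the same order for FOS and EGR1. At 7 d, replicate 6 stood far above the others in both (8.98 and 10.52), which weighs on r among 6 birds. The order of birds within groups is not given here for DUSP6. JUN (r = 0.639, adjusted permutation p = 0.0904), DUSP5 (0.324) and HOMER1 (0.267) did not pass. FOS and the array median gave an r of 0.429 (permutation p = 0.164). In the 10 non-singing birds none of the 5 relations passed, with an r of 0.182 for EGR1 (permutation p = 0.62) and 0.472 for DUSP6 (0.162), and the difference between the labels in these correlations was not tested.

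CRHBP (XM_002190644) encodes the protein that binds corticotropin-releasing hormone and limits its action, and it had the smallest adjusted p of the genes that were higher. It ran from 9.28 to 10.34 (median 9.65) at 7 d and from 9.66 to 10.3 (median 10.15) at 14 d. At 1 h it ran from 8.29 to 9.34 (median 8.75), and the 3 h birds stood at 9.6, 8.43, 9.1 and 8.61. Of the 12 singing birds, 10 lay above every non-singing bird, and 3 h replicate 1 was the highest of the others. The mean was 9.89 ± 0.35 (SD, n = 12) against 8.84 ± 0.40 (n = 10). CRHBP rose by 1.03 ± 0.15 (SE), or 2.05-fold (adjusted p = 0.000451), and the difference stayed between 0.95 and 1.14 with any array left out. Of 15 measured genes in the list of neuropeptides and their receptors CRHBP alone passed, where 1.88% of the genes with an official symbol did. The other measured member of the same hormone system, the receptor gene CRHR2, had a difference of 0.14 (0.457). RAMP3, a partner of calcitonin-family receptors, had a larger negative difference of -0.94 that did not pass (0.067).

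Genes of the extracellular matrix went both ways. HAS2 (XM_002200462) makes hyaluronan, the backbone of perineuronal nets, and ADAMTS20 (XM_002194104) is a secreted metalloproteinase of a family that cleaves proteoglycans. HAS2 ran from 5.11 to 7.16 (median 6.0) at 7 d and from 4.36 to 6.6 (median 5.48) at 14 d. The 1 h birds ran from 4.09 to 4.92 (median 4.48), and the 3 h birds stood at 4.92, 5.0, 4.08 and 4.59. All singing birds but 1 lay above every non-singing bird, although the signal was dim. HAS2 rose by 1.21 ± 0.23 (SE), or 2.32-fold (adjusted p = 0.00629).

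ADAMTS20 was lower in singing birds, from 5.98 to 6.95 (median 6.31) at 7 d and from 6.74 to 7.41 (median 6.86) at 14 d. It ran from 6.43 to 7.41 (median 7.21) at 1 h, and the 3 h birds stood at 7.4, 7.97, 8.54 and 8.14. The 7 d birds were lowest as a group and the 3 h birds highest, and 4 of the 12 singing birds lay below every non-singing bird. ADAMTS20 fell by 0.90 on the log2 scale (SE 0.14, adjusted p = 0.00103), and the 14 d group was above the 7 d group by 0.58 (0.0414). HAS2 and ADAMTS20 were the called members among 10 measured genes of the matrix list, whose median difference was -0.02. Of all genes with an official symbol 1.88% passed. SERPINH1, the collagen chaperone of the endoplasmic reticulum, rose by 0.51 (0.0181), and F13A1, the A subunit of coagulation factor XIII, a transglutaminase that also links matrix proteins, rose by 0.47 (0.00569).

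The growth factor gene IGF2 (NM_001122966) nearly separated the labels. It ran from 8.73 to 9.3 (median 9.0) at 7 d and from 8.79 to 9.07 (median 8.93) at 14 d. Birds implanted for 1 h ran from 8.18 to 8.76 (median 8.63), and the 3 h birds stood at 8.63, 8.54, 8.56 and 8.44. Of the 12 singing birds 11 lay above every non-singing bird. IGF2 rose by 0.43 ± 0.08 (SE), or 1.35-fold (adjusted p = 0.00504). It was the 1 called gene of 12 measured neurotrophins and growth factors, against 1.88% of the genes with an official symbol. The related ligand IGF1 had a difference of -0.10 (0.465) and the receptor IGF1R of -0.14 (95% interval -0.45 to 0.17, 0.638). IGF1R was lower at 14 d than at 7 d, by a log2 difference of -0.69 (0.029). Within 7 d, IGF1R was highest in replicate 4 (8.66), with the lowest array median of that group. It was lowest in replicate 6 (7.13), with the highest array median. The part of overall array level in this difference is not given here.

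Cells of the meninges and vessel walls also make IGF2 and collagen-processing proteins, and markers of these cells were read beside them. None of the 7 measured markers of choroid plexus, ependyma and meninges passed, where 1.88% of the genes with an official symbol did. At that share a list of this size is likely to hold no called gene, so the count cannot tell whether these cells differed. The list held 22 markers, and 4 of the 7 measured lay above the cut for dim transcripts. Among the 7 markers, DCN, a proteoglycan of fibroblasts, had a difference of -0.35 (0.283), AQP1 of -0.31 (0.261) and RBP4 of 0.24 (0.145). The mean of the 7 markers ran from 6.2 to 6.72 in singing and from 6.23 to 6.64 in non-singing birds. FLT1, the 1 measured of 23 listed endothelial and pericyte markers, had a difference of 0.11 (0.516) and lay under the cut for dim transcripts. The part of such cells in the differences of IGF2, SERPINH1, F13A1 and HAS2 was not tested.

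Genes of the neuronal cytoskeleton and its transport differed in 3 of 6 measured members of their list, 2 higher and 1 lower, where 2.50% of all transcripts passed. The list median was 0.12, against 0.045 over all transcripts. NEFM (XM_002197502), the medium neurofilament subunit of large axons, ran from 11.36 to 11.61 (median 11.43) at 7 d and from 11.17 to 11.73 (median 11.4) at 14 d. At 1 h it ran from 10.06 to 11.5 (median 10.51), and the 3 h birds stood at 10.9, 11.04, 11.2 and 11.03. The singing birds lay close together and the 1 h birds spread more widely, with the highest of them within the singing range. NEFM rose by 0.59 ± 0.12 (SE), or 1.5-fold (adjusted p = 0.0124).

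ACTR10 (XM_002200611), a subunit of dynactin, which links the dynein motor to its cargo, rose by 0.52 ± 0.10 (SE, adjusted p = 0.0055). It ran from 10.6 to 11.22 (median 10.78) at 7 d and from 10.56 to 11.22 (median 10.97) at 14 d. The 1 h birds ran from 10.13 to 10.63 (median 10.36), and the 3 h birds stood at 10.56, 10.49, 10.31 and 10.06. Of the 12 singing birds 9 lay above every non-singing bird. The microtubule-associated gene MAP7 fell by 0.46 (0.0312), with a call that was lost in 8 of 22 fits with an array left out. SV2B, a glycoprotein of synaptic vesicles, rose by 0.53 (0.0418), with a call that was lost in 15 of these 22 fits. It was the 1 called gene of 9 in the list of vesicle release, against 1.88% of the genes with an official symbol. SNAP25, a protein of the vesicle fusion machinery in all neurons, stood at 11.94 in singing and 11.95 in non-singing birds.

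GRM5 and HTR1B, the called transmitter receptors of the lists, were both lower in singing birds. GRM5 (XM_002186725), the metabotropic glutamate receptor mGluR5, ran from 6.79 to 7.41 (median 7.06) at 7 d and from 6.89 to 7.1 (median 6.99) at 14 d. It ran from 7.45 to 7.93 (median 7.53) at 1 h, and the 3 h birds stood at 7.35, 7.65, 7.08 and 7.81. All 12 singing birds lay below the mean of the non-singing birds, and 3 h replicate 3, 3 h replicate 5 and every 1 h bird lay above all of them. GRM5 fell by 0.49 on the log2 scale (SE 0.09, adjusted p = 0.00398), and had an adjusted p of 0.0528 with 3 h replicate 2 in the fit. The other 6 measured genes of glutamate transmission did not pass, where 1.88% of the genes with an official symbol did. Their differences ran from -0.10 (the AMPA receptor subunit GRIA1) to 0.13 (the vesicular transporter SLC17A8).

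Of 12 measured receptors for monoamines and acetylcholine the serotonin receptor HTR1B alone passed, where 1.88% of the genes with an official symbol did. It fell by 0.30 (SE 0.08, adjusted p = 0.0323), from 9.44 ± 0.17 (SD, n = 10) to 9.13 ± 0.20 (n = 12), and did not pass in 9 of 22 fits with an array left out. The other 11 receptors had differences above 0, as did 15943 of all 26061 transcripts. The largest was 0.43 for HTR2B (0.0772), which was dim, at 4.9 in singing and 4.48 in non-singing birds. Of the 12 receptors 6 lay above the cut for dim transcripts. The lysophosphatidic acid receptor gene LPAR1 fell by 0.54 (0.0217) and was no longer called without 3 h replicate 4 or 5. GPR63, a receptor of the G protein-coupled class, rose by 0.53 (0.0133). None of the 8 measured genes of inhibitory transmission passed, where 1.88% of the genes with an official symbol did, and their differences ran from -0.25 to 0.18. These are values of the brightest identifier of a gene, and a dimmer one of the glycine receptor subunit GLRA2 (XM_002197586) passed, with a difference of -0.37 (0.0119). GABRD, which encodes the delta subunit of GABA-A receptors, was at 5.97 ± 0.29 in singing and 5.94 ± 0.24 in non-singing birds, a difference of 0.02 (95% interval -0.22 to 0.25).

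The interferon regulatory factor IRF4 (XM_002199511) ran from 7.07 to 7.53 (median 7.31) at 7 d and from 7.03 to 7.67 (median 7.39) at 14 d. Birds implanted for 1 h ran from 6.74 to 7.23 (median 6.83), and the 3 h birds stood at 6.84, 6.95, 6.91 and 6.82. Apart from 1 h replicate 4, every non-singing bird compared lay below all singing birds. Outside the comparison, control birds ran from 6.75 to 7.11 and 3 d birds from 6.56 to 7.22, overlapping the singing birds, and 8 h birds from 6.3 to 6.7. IRF4 rose by 0.44 ± 0.08 (SE, adjusted p = 0.00484). The markers of microglia and macrophages reported here, LAPTM5 and SPI1, had differences of 0.19 and -0.16, and neither passed.

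RCAN2, a regulator of calcineurin, rose by 0.42 (0.0273), PPP2R5C, a regulatory subunit of protein phosphatase PP2A, by 0.39 (0.0397) and CCND1, cyclin D1, by 0.34 (0.0255). CCND1 was the 1 called gene of 16 in the cell cycle list, against 1.88% of the genes with an official symbol. It did not pass without 3 h replicate 3, 4 or 5. RCAN2 did not pass without 3 h replicate 1, 3 h replicate 3 or 7 d replicate 2, and PPP2R5C did not in 13 of 22 such fits.

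The kinase gene JAK2 fell by 0.35 (0.0226) and was no longer called without 3 h replicate 3. BOK, a pro-apoptotic member of the BCL2 family, fell by 0.41 (0.014) to a singing mean of 7.37. Outside the comparison, the mean of BOK was 7.32 at 3 d, 7.72 at 8 h and 7.81 in control birds. The lysine methyltransferase SETD7 fell by 0.56 (0.02, and 0.0502 without 3 h replicate 5) and the Ras-family GTPase DIRAS2 by 0.68 (0.0144). HSP90B1, a chaperone of the endoplasmic reticulum, fell by 0.39 (0.00985) to a singing mean of 11.57. Outside the comparison, its mean was 11.4 at 8 h, below that of singing birds, 11.83 at 3 d and 11.89 in control birds. The other 14 measured chaperones did not pass, where 1.88% of the genes with an official symbol did. RALYL, which encodes an RNA-binding protein, fell by 0.32 (0.0266) and was no longer called without 3 h replicate 4 or 5. The cell adhesion gene NCAM2 fell by 0.49 (0.0417) at a low level, 2.17 ± 0.29 against 2.64 ± 0.37, and was lost in 16 of 22 fits with an array left out.

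ACOX2 (XM_002187581), a peroxisomal acyl-CoA oxidase, fell and had the smallest adjusted p of all named genes. It ran from 7.66 to 8.32 (median 8.12) at 7 d and from 7.98 to 8.26 (median 8.12) at 14 d. At 1 h it ran from 8.05 to 8.85 (median 8.44), and the 3 h birds stood at 9.19, 9.13, 9.1 and 9.03. The 3 h birds lay above all others and the 1 h birds overlapped the singing birds. ACOX2 fell by 0.68 on the log2 scale (SE 0.10, adjusted p = 0.000428). Most of this lay in 14 d against 3 h (-1.0, adjusted p = 0.000412), and 7 d against 1 h did not pass (-0.36, 0.185). Control birds (8.26 ± 0.29, SD) and 3 d birds (8.08 ± 0.15) stood near the singing mean of 8.09, and 8 h birds stood at 8.47 ± 0.47.

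The apolipoprotein gene APOH fell by 0.92 (SE 0.14, 0.000843), with 3 h birds at 7.17, 7.67, 7.39 and 8.17 and all other birds compared at 6.67 or below. DHRS12 (XM_002195131), a short-chain dehydrogenase, fell by 0.54 (SE 0.10, 0.00657), from 10.2 ± 0.32 (SD, n = 10) to 9.66 ± 0.18 (n = 12), and 6 singing birds lay below every non-singing bird. GDA, guanine deaminase, rose by 0.69 (0.0388), and its call was lost in 16 of 22 fits with an array left out. No gene passed among 9 of mitochondrial respiration, 13 of glycolysis and the citrate cycle or 17 of ribosome and translation. Of all genes with an official symbol 1.88% passed, so none is near that share in lists of this size.

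The remaining called genes differed by 0.54 or less in size on the log2 scale. Higher were the RNA-binding gene TSN (0.45), the dual oxidase maturation factor DUOXA2 (0.38), DPH3 of diphthamide synthesis (0.41), REXO4 (0.46), PRELID3A (0.46), MFAP3L (0.32) and CZH9orf85 (0.35). Lower were MTUS1 (-0.54), NUDT12 (-0.33), ZBTB41 (-0.32), LANCL1 (-0.30) and CREG1 (-0.26). Of these 12 genes DUOXA2 and ZBTB41 alone passed with any array left out. TSN, DPH3, REXO4, MTUS1 and CREG1 were lost in 11 to 17 of the 22 fits. MFAP3L was lost without 3 h replicate 3, PRELID3A without 3 h replicate 3 or 5, CZH9orf85 without 3 h replicate 4 or 5 or 7 d replicate 2, LANCL1 without any of 4 arrays and NUDT12 without any of 4.

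Genes of sex steroid action and conversion did not pass where they are reported here. The oestrogen receptor ESR1 had a difference of 0.24 (95% interval -0.08 to 0.56, adjusted p = 0.444), and aromatase, CYP19A1, of 0.09 (-0.09 to 0.26, 0.604). SRD5A2, the 5-alpha-reductase that makes dihydrotestosterone, had a difference of 0.36 (0.13 to 0.59, 0.0853). SRD5A2 passed after centring (0.0384), after quantile normalization (0.0292), with the array median as a covariate (0.0121), with array weights (0.00436), with 38 arrays (0.0339) and without 1 h replicate 4. Of 5 measured genes of steroid synthesis and conversion none passed, with a median of 0.10, where 1.88% of the genes with an official symbol passed. The glucocorticoid receptor NR3C1 had a difference of 0.03 (0.884).

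Across 34 gene lists, 272 distinct genes were measured and 14 passed (5.15%, against 1.88% of the genes with an official symbol and 2.50% of all transcripts), from lists chosen with earlier results known. The 12 lists with a called member each held 1 to 3 of them, and the lists of ion channels, energy metabolism, splicing, the circadian clock, vessel growth and axon growth held none. List medians ran from -0.12 for sodium and calcium channels to 0.19 for receptors of monoamines and acetylcholine, against 0.045 over all transcripts. Within the list of sodium and calcium channels all 4 measured genes had a difference below 0, as did 10118 of all 26061 transcripts. None of 19 measured markers of other cell types passed, with differences from -0.35 for DCN (0.283) to 0.27 for CLDN11, a tight junction protein of myelin (0.104). CLDN11 passed with 38 arrays (0.0459), the array median as a covariate (0.049), array weights (0.0216) and without 7 d replicate 4. The astrocyte marker SLC1A3 passed with the covariate (0.0105) and weights (0.00543). With weights RBP4 (0.0291) and LAPTM5 (0.0474) passed too, and RBP4 also without 3 h replicate 1. At a share of 1.88% a list of 19 is likely to hold no called gene, so the count cannot tell whether cell makeup differed. Of 7 neuron markers NEFM alone passed, and GAD1, the enzyme that makes GABA, stood at 10.74 in singing and 10.8 in non-singing birds.

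**Figure D4:**
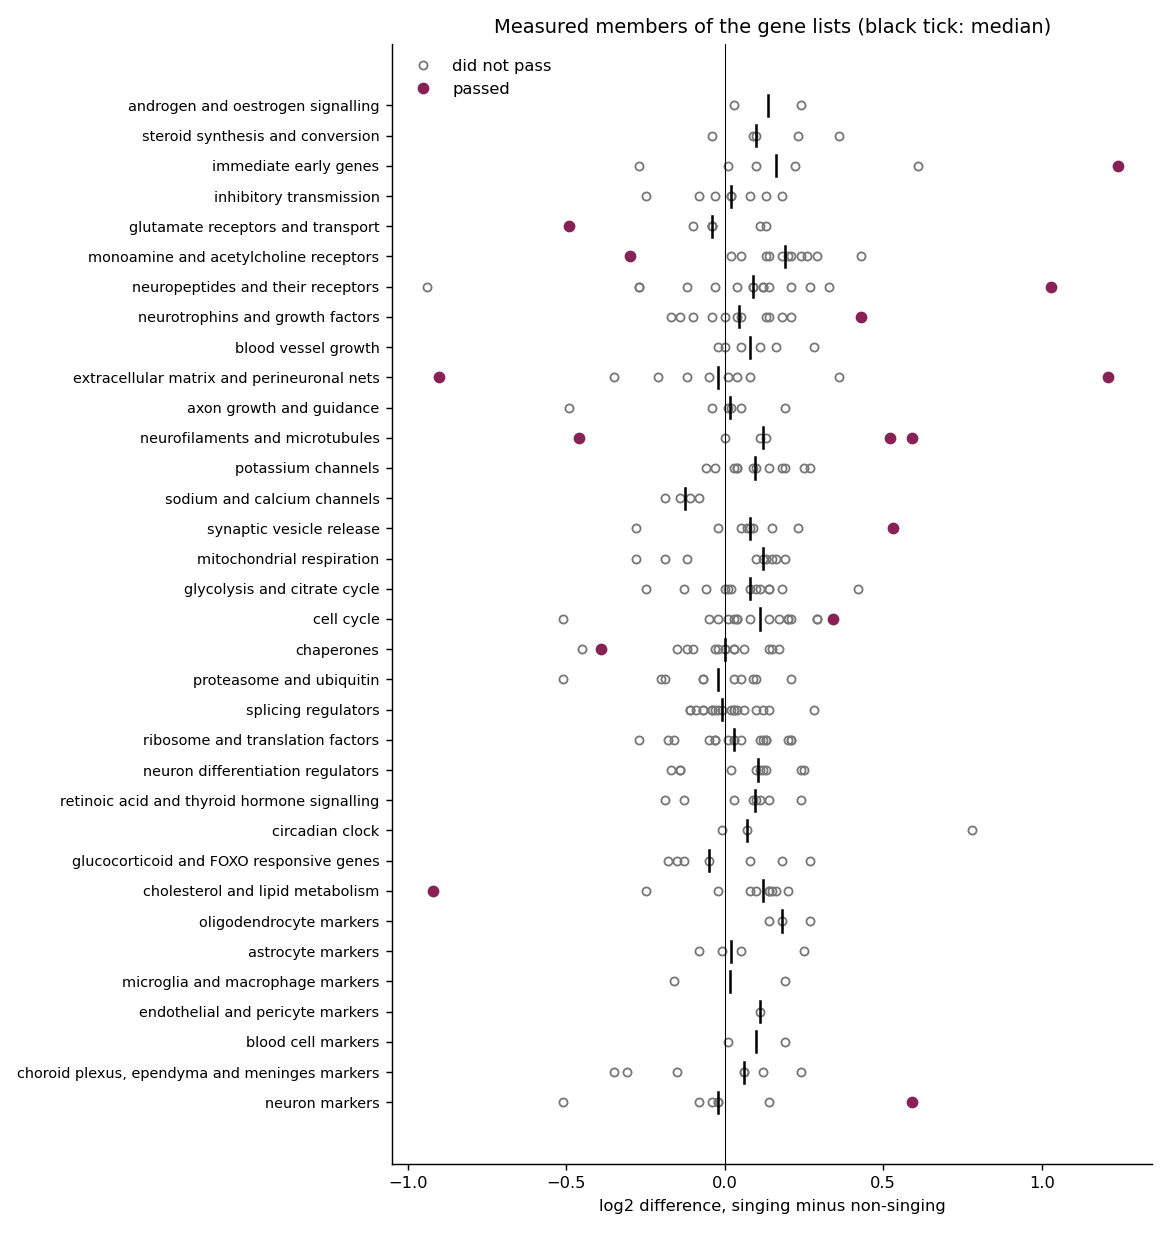
Log2 difference, singing minus non-singing, of each measured member of the 34 gene lists (points, filled where the gene passed), with the median of each list as a black tick. Called genes stand alone in their lists or in groups of 2 or 3, and list medians lie between -0.12 and 0.19.

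The comparison can be divided into contrasts whose differences share no array, 7 d against 1 h and 14 d against 3 h. Their p-values are not independent, since the fit estimated the spread between birds from all groups compared together. The contrasts called 340 (1.30%) and 1467 (5.63%) transcripts. Of these, 175 (0.672%) and 758 (2.91%) were higher and 165 (0.633%) and 709 (2.72%) lower in the singing group. For 14 d against 3 h the split was 902 and 1206 after centring and 1047 and 1218 after quantile normalization. With an array left out in turn the first count ran from 65 (without 7 d replicate 5) to 626 (without 1 h replicate 6) and the second from 364 (without 3 h replicate 3) to 3504 (without 1 h replicate 6). In both, 35 transcripts passed in the same direction, 21 higher and 14 lower, which is 10.3% of the first and 2.39% of the second, and 6 passed in opposite directions. Across all transcripts, which are not independent replicates, the differences of these contrasts had a Pearson's r of -0.18, and the other division, 7 d against 3 h and 14 d against 1 h, gave -0.057. A larger difference in one contrast thus did not go with a larger one of the same sign in the other. The mean array median also went opposite ways. It was lower at 7 d than at 1 h (7.689 and 7.714) and higher at 14 d than at 3 h (7.816 and 7.712). The part of overall array level in these correlations was not tested, so they cannot tell whether the contrasts share an effect of singing.

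Named genes that passed in both contrasts in the same direction were CRHBP, GRM5 and ADAMTS20. CRHBP differed by 0.97 at 7 d against 1 h (adjusted p = 0.0196) and by 1.10 at 14 d against 3 h (0.00769). GRM5 differed by -0.51 (0.0385) and -0.48 (0.0395). ADAMTS20 differed by -0.74 (0.0495) and -1.06 (0.00649). FOS had like differences of 1.24 and 1.23, neither of which passed alone (0.112 and 0.0752). IGF2 (0.48 and 0.38), IRF4 (0.41 and 0.46) and ACTR10 (0.47 and 0.58) were similarly even. Of the 42 genes, 12 passed in 7 d against 1 h and 25 in 14 d against 3 h, where 1.30% and 5.63% of all transcripts did. The 42 were called on the mean of these contrasts in the same birds, so these counts and like differences are no separate test.

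Other called genes had most of their difference in one contrast. APOH (-0.39 and -1.45), DIRAS2 (-0.14 and -1.23), LPAR1 (-0.13 and -0.96), MTUS1 (-0.17 and -0.92), TSN (0.05 and 0.84), DPH3 (0.06 and 0.76), DUOXA2 (0.02 and 0.75) and ZBTB41 (-0.08 and -0.56) differed mainly between 14 d and 3 h. REXO4 differed by -0.12 and 1.04, opposite in sign, and its level was higher at 14 d than at 7 d by 0.58 (adjusted p = 0.0261). MFAP3L went the other way, with 0.57 at 7 d against 1 h (0.00495) and 0.08 at 14 d against 3 h (0.627). In a fit with a single mean for all birds of each label, in which the 1 h and 3 h birds are 1 group, 21 of the 42 genes passed. APOH (0.128), DIRAS2 (0.145), LPAR1 (0.183), MTUS1 (0.178), TSN (0.179), DPH3 (0.188), DUOXA2 (0.148), ZBTB41 (0.0856), REXO4 (0.272) and MFAP3L (0.0611) did not. The other 11 genes that did not pass there were CREG1, GDA, GPR63, HTR1B, LANCL1, MAP7, NCAM2, NUDT12, PPP2R5C, RCAN2 and SV2B, of which GPR63 (0.47 and 0.58) and MAP7 (-0.43 and -0.50) were even across the contrasts. The 3 h birds and their arrays cannot be told apart in this.

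**Figure D5:**
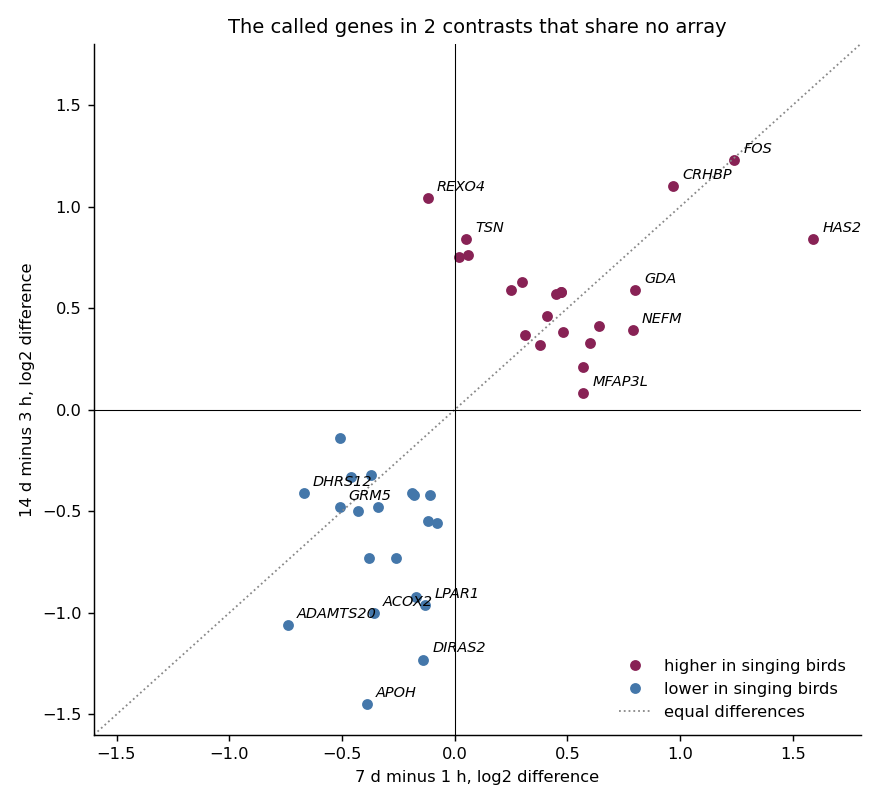
The 42 called genes by their log2 difference at 7 d minus 1 h (x axis) and at 14 d minus 3 h (y axis), which share no array. The genes were called on the mean of these differences, so the plot is no separate test. CRHBP (0.97 and 1.10) and FOS (1.24 and 1.23) lie near the dotted line of equal differences, while DIRAS2 (-0.14 and -1.23) and REXO4 (-0.12 and 1.04) lie near the vertical line at 0.

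The singing groups also differed from each other. Between 14 d and 7 d, 3831 transcripts passed (14.7%), 3037 higher (11.7%) and 794 lower (3.05%) at 14 d, or 2067 and 1474 after centring of the arrays. JAZF1 (1.55), BEND5 (1.47), MARVELD1 (1.19) and KLHDC4 (1.14) were the named genes with the largest rises, and SERAC1 (-1.05), NECAB2 (-0.91), NUDCD1 (-0.91) and RBM26 (-0.82) those with the largest falls. None of these 8 genes passed in singing against non-singing birds. The count was 532 with the array median as a covariate, 823 without 7 d replicate 4 and 8976 without 7 d replicate 6. These replicates had the lowest and highest array medians at 7 d (7.565 and 7.87). Within 7 d, JAZF1 (4.94 and 6.73), BEND5 (6.66 and 8.23) and KLHDC4 (8.76 and 10.18) were lowest in replicate 4 and highest in replicate 6. MARVELD1 was lowest in replicate 4 (7.26), and NECAB2 ran the other way (10.42 and 9.33). The part of overall array level in the differences of these genes is not given here.

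No named gene separated the labels completely. Among the birds compared, all singing birds lay on one side of all non-singing birds in 16 transcripts (0.0614%), 10 higher (0.0384%) and 6 lower (0.0230%). None of these transcripts has an official symbol here. They were chosen after their values were seen. The largest difference was that of LOC100221179 (XM_002196952), whose level ran from 9.94 to 10.66 (median 10.5) at 7 d and from 10.45 to 11.21 (median 10.76) at 14 d. It ran from 7.14 to 8.88 (median 7.93) at 1 h, and the 3 h birds stood at 9.74, 6.97, 9.42 and 8.11. The non-singing birds spread over a much wider range than the singing ones. Birds outside the comparison overlapped the singing birds, with 8 h birds from 7.1 to 10.73 and 3 d birds from 6.74 to 10.76. The difference of LOC100221179 was 2.32, or 4.99-fold (adjusted p = 4.59e-05).

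XM_002190533 followed with a difference of 2.16, or 4.47-fold (adjusted p = 5.57e-05). Its lowest singing bird stood at 9.16 and its highest non-singing bird at 8.74. Outside the comparison, the 8 h birds ran from 8.14 to 9.72 and the 3 d birds from 6.09 to 11.29. The transcripts with the largest differences among the lower ones were ENSTGUT00000004502 (-0.56, 0.0167) and ENSTGUT00000012603 (-0.48, 0.00132). Control birds overlapped the singing birds in both, from 7.51 to 7.85 against 7.26 to 7.62, and from 7.11 to 7.7 against 6.75 to 7.38.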

How the data were processed

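Total RNA of HVC was processed with the Ambion WT Expression Kit and hybridised to Affymetrix arrays, 1 bird to an array, per the labels. The deposited values are log2 expression values of the authors, 1 for each of 26061 transcript-type identifiers, with a scale read from the values; the submitters' processing notes name affy and Affymetrix Expression Console, and the summarising and normalising steps are not given in the sources used here. Values were used as deposited. The number of arrays limits the precision. With 1 bird to an array, limma's p-values rest on the spread between birds and between arrays together, which cannot be told apart.

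Identifiers were paired with symbols through unversioned RefSeq accessions in RefSeq's gene table for the zebra finch (assembly bTaeGut7.mat). A gene was found for 2471 of 26061 and none for 23590. Results of 4 genes are not reported here, and without them official symbols belonged to 2240 identifiers and 2232 genes, and 8 genes with several identifiers were represented by the brightest. Genes absent from the 2232 were not analysed here.

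In R 4.3.3, limma 3.58.1 fitted 1 mean per group to the 22 arrays, without covariates. The tested contrast was the mean of the 7 d and 14 d groups minus the mean of the 1 h and 3 h groups, so each group has the same weight, and a difference can depart slightly from that of the means over birds. Tests were moderated (eBayes) and two-sided, with Benjamini-Hochberg adjustment over 26061 transcripts, and an adjusted p under 0.05 was called or said to pass. An adjusted p given for a gene is limma's. The code was tested on simulated data. Relations between genes were tested by permutation with 100000 resamples. Plots were made in matplotlib 3.10.9 (Python 3.11.15, pandas 2.3.3).

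The groups, gene lists and tests were chosen with earlier results of these data known. The rule names, in each direction, up to 12 genes with the largest difference among those called, at or above the 25th percentile, with each label's birds beyond the other's mean and both singing group means beyond both non-singing ones. It also names up to 4 called members of a list, or 2 with the smallest p, up to 4 genes in each direction at 14 d against 7 d, and a set of fixed names. It names 17 of the 42 called genes. The other 25, and some list members that did not pass, were named after their values were seen.

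Alternatives were centring, quantile normalization, the array median or the title letter as a term, array weights, trend and robust eBayes, 38 arrays of all groups, one mean per label, the replicate number as a block, the mean over identifiers of a gene, no transcripts under the 25th percentile, an adjusted p under 0.01, a fold of at least 1.5, replicate 2 of the 3 h group returned and each array left out in turn.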

Additional observations from a re-analysis of the deposited data

Results flagged for a closer look

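Within groups of 4 to 6 birds, 24 of 380 gene levels and array medians held a bird far from the others, where chance flags about 1 in 20. In 1 h replicate 6, ADAMTS20 stood at 6.43 (others 7.15 to 7.41), BOK at 8.22 (7.63 to 7.81), DPH3 at 8.06 (8.61 to 8.91) and IGF1R at 8.66 (7.86 to 8.12). In 1 h replicate 4, IRF4 stood at 7.23 (6.74 to 6.86) and SETD7 at 7.13 (7.92 to 8.35).

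Of the 3 h birds, replicate 1 stood at 8.17 for BEND5 (7.63 to 7.71), 9.63 for DIRAS2 (10.97 to 11.19) and 7.86 for RBM26 (7.34 to 7.42). Replicate 5 stood at 7.46 for BOK (7.79 to 7.86), 7.89 for KCNK9 (8.15 to 8.18) and 10.26 for UQCRQ (all others 10.49). Replicate 4 stood at 7.26 for EDN1 (7.16 to 7.17).

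At 7 d, replicate 6 stood at 8.82 for COX17 (9.01 to 9.12), 10.52 for EGR1 (8.85 to 9.35) and 6.98 for NUDCD1 (7.71 to 8.07), and replicate 2 at 11.24 for MFAP3L (10.94 to 11.05). The 7 d replicate 6 bird also had the highest FOS level, 8.98. At 14 d, replicate 2 had the highest array median, 7.91 (7.78 to 7.82), and stood at 8.44 for CYP19A1 (7.96 to 8.09), 8.38 for KCNK12 (8.07 to 8.18), 5.35 for NUDCD1 (6.8 to 7.53), 10.09 for SCN3B (9.4 to 9.62) and 9.36 for UQCRQ (9.95 to 10.15). Replicate 4 stood at 8.5 for CREG1 (8.7 to 8.77).

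Of the genes called in singing against non-singing birds or named by a fixed list, 3 also passed limma's test of 14 d against 7 d. ADAMTS20 was higher at 14 d by 0.58 (adjusted p = 0.0414) and REXO4 by 0.58 (0.0261), and IGF1R differed by -0.69 (0.029).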

How the results depend on the processing

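The 42 called genes and all 652 called transcripts kept their direction in each fit that held them, except for the transcripts with 3 h replicate 2 returned, where 651 did. Small differences that did not pass, such as those of GABRD (-0.05 to 0.07) and NR3C1 (-0.04 to 0.07), changed sign with an array left out. The count of 652 became 1338 with the array median as a covariate, 3049 with array weights, 285 with one mean per label, 289 with the replicate block, 269 with 3 h replicate 2, 160 at an adjusted p under 0.01, 126 at a fold of at least 1.5 and 339 to 1072 with an array left out. The 303 higher and 349 lower became 230 and 397 after centring and 316 and 465 after quantile normalization, but more were higher with the covariate (705 and 633), one mean per label (155 and 130) and 3 h replicate 2 (145 and 124). With the covariate, 14 d against 7 d had fewer calls than singing against non-singing birds.

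For 7 d against 1 h, 340 became 1242, 7502, 72, 29, 28 and 116 with the covariate, weights, block, returned replicate, stricter p and fold, 139 after centring, 153 with the title letter and 65 to 626 with an array left out. With weights 2376 were higher and 5126 lower. For 14 d against 3 h, 1467 became 958, 8572, 273, 545, 222 and 681 in the same order, 4108 with 38 arrays (2724 higher, 1384 lower), 2265 after quantile normalization and 364 to 3504 with an array left out. For 14 d against 7 d, 3831 became 532, 12696, 2173, 532, 340 and 1361 in that order, 6208 with 38 arrays and 823 to 8976 with an array left out; the 3037 higher and 794 lower became 1990 and 1227 after quantile normalization. The cause was not tested. The difference in array medians stayed between 0.0145 and 0.0567 with an array left out.

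Replicate numbers do not pair birds in the labels. Of 30 same-numbered pairs of arrays 7 correlated above 0.1 in their deviations (range -0.691 to 0.261, mean -0.031, against 0.006 in 150 other pairs), and 1 of 22 arrays correlated best with its own number. Of the 42 genes, 20 passed with the block, and FOS had an adjusted p of 0.0815.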

Other observations

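The control birds, which carried an empty tube and have bird numbers in another range, entered no main test. For 30 of the 42 called genes their mean lay nearer that of the non-singing birds and for 12 nearer that of the singing birds. The same count over all transcripts was not made, so these counts cannot tell which birds changed. CRHBP (8.7 ± 0.31, SD, n = 5), HAS2 (4.48 ± 0.26), IGF2 (8.41 ± 0.07), NEFM (10.6 ± 0.34) and FOS (6.34 ± 0.17) stood in control birds near their non-singing levels. GRM5 (7.52 ± 0.17) and DHRS12 (10.38 ± 0.33) did as well. The 8 h and 3 d birds, also labelled as non-singing, reached singing levels for some of these genes. At 8 h, FOS ran from 5.38 to 7.98 and CRHBP from 7.93 to 9.78, against 6.36 to 8.98 and 9.28 to 10.34 in singing birds. At 3 d, HAS2 ran from 4.34 to 6.07 and NEFM from 9.75 to 11.65. IGF2 stayed below the lowest singing bird (8.73), with highest birds of 8.71 at 8 h and 8.65 at 3 d. For 6 genes the control mean lay at the singing mean or beyond it, among them RCAN2, which regulates calcineurin (12.28 ± 0.10 in control, 12.14 ± 0.10 in singing and 11.74 ± 0.36 in non-singing birds), MFAP3L (11.12, 11.05 and 10.68) and GDA (9.59, 9.24 and 8.58). The others were DPH3 (8.85, 8.81 and 8.45) and, of the lower genes, DIRAS2 (9.25, 9.54 and 10.12) and LANCL1 (9.95, 10.05 and 10.33). LOC100221179 also lay between the labels in control birds, at 9.16 ± 0.56.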
